A study of Mus musculus with 7 samples.

Results

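The genes described here encode the adhesion molecules and plaque proteins of the desmosome, the junction that ties keratinocytes to each other. They were the desmogleins Dsg1a, Dsg1b, Dsg2 and Dsg3, the desmocollins Dsc1, Dsc2 and Dsc3, the plakophilin Pkp1, plakoglobin (Jup) and desmoplakin (Dsp). Every non-control probe set that the platform annotation assigns to exactly 1 of these genes was taken. This gave 19 probe sets for 9 of the 10 genes, of 45037 non-control probe sets and 18193 genes in all; Dsg3 was not analysed here. Of the 9 genes 5 had several probe sets and 4 had a single one, and each gene is read first from its probe set with the highest mean signal.

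Desmogleins and desmocollins are cadherins that bind across the gap between neighbouring cells. Inside the cell their tails bind plakoglobin and the plakophilins, and desmoplakin links this plaque to keratin filaments. In stratified epidermis Dsg1 and Dsc1 are the cadherins of the upper, differentiating layers, whereas Dsg2, Dsg3, Dsc2 and Dsc3 are used more in the lower layers and in hair follicles. The mouse has several Dsg1 genes that arose by duplication, so their probe sets may share signal. In the RefSeq annotation the cadherin genes lie side by side on chromosome 18 in the order Dsc3, Dsc2, Dsc1, Dsg1c, Dsg1a, Dsg1b, Dsg4, Dsg3 and Dsg2, whereas Pkp1, Jup and Dsp lie on chromosomes 1, 11 and 13.

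RNA was measured on 7 single-channel Affymetrix mouse arrays. They held 2 samples of dissected mouse basal cell carcinoma, a skin tumour of hair follicle and basal keratinocyte character, 2 samples of normal P0 (newborn) epidermis, and 3 samples of PDKC1, a line of cells from mouse basal cell carcinoma kept in conditioned medium. PDKC1 was sampled once untreated (0 h) and once at each of 6 h and 10 h of cyclopamine, an inhibitor of Smoothened, which passes on the Hedgehog signal. The sources used here do not give genotype or strain of the mice or the dose of cyclopamine; PDKC1 is 1 line, and the epidermis was newborn, so carcinoma and age cannot be told apart in any comparison of tumour with epidermis. The labels do not tie replicates to separate animals, and the p-values therefore reflect the spread of these samples alone, which may be technical. In dissected tissue, fewer cells of a type and less RNA per cell cannot be told apart.

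A measure of RNA quality and the signal level differed between the groups and cannot be told apart from them. The ratio of 3' to 5' signal of control probe sets can rise as RNA degrades. For Actb it was 11.3 and 93.1 in the tumours, 2.84 to 3.98 in epidermis and 1.15 to 1.21 in PDKC1. For Gapdh it was 10.6 and 15.4 in tumours 1 and 2, 4.52 to 5.27 in epidermis and 0.699 to 0.741 in PDKC1. Tissue RNA was labelled from 100 ng and PDKC1 RNA from 2 ug, so RNA input and quality cannot be told apart between tissues and PDKC1. The median probe set was at an intensity of 118.2 to 127.9 in the tumours, 71.0 to 75.3 in epidermis and 72.1 to 78.1 in PDKC1. Markers of some other cell types also moved with the groups. Of 8 fibroblast markers 7 were higher in the tumours, with a summed intensity of 65766 and 77840 there, 12037 to 14742 in epidermis and 578.0 to 746.1 in PDKC1. Of 6 skeletal muscle markers 3 were higher, summing to 13266 and 2868 in the tumours against 186.7 and 254.9 in epidermis, and of 4 mast cell markers 3 were higher (4018 and 4535 against 694.1 and 970.3). Of 5 endothelial markers 2 were higher, with sums of 1024 and 800.1 against 253.8 and 265.0. In contrast, 0 of 4 leukocyte markers were called. Melanocyte markers went both ways (1 higher and 1 lower of 4), and 1 of 3 adipocyte markers was higher. Their part in the results was not tested. Keratinocyte markers summed to 59205 and 70181 in the tumours, 83792 and 98433 in epidermis and 73756 to 78774 in PDKC1. Among these 6 markers 2 were called lower in the tumours, where Sfn was at 737.3 and 190.2 against 3382 and 3961 in epidermis. Another 2 of the 6, Cdh1 and Epcam, were under the median probe set in every PDKC1 array. This line thus carries Krt5, Krt14, Trp63 and Sfn without those epithelial adhesion markers.

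Between tumour and newborn epidermis the desmosomal genes changed in both directions. The suprabasal cadherin genes Dsc1, Dsg1b and Dsg1a and the plaque gene Jup were 2.41-fold to 4.95-fold lower in the tumours, Dsc2 was 3.41-fold and Dsg2 1.67-fold higher, and Dsc3, Pkp1 and Dsp were not called (limma on log2(intensity + 16), Benjamini-Hochberg adjusted p under 0.05 over all 45037 probe sets). Of the 9 genes 4 were therefore lower and 2 higher, beside 12.3% and 16.2% of all genes. The median log2 difference, tumour minus epidermis, was -0.69 for the 9 genes and 0.09 for all genes. That order depended on the scaling. After quantile normalization the middle value of the 9 genes was -0.03 (Pkp1), over the all-gene median of -0.19. After median centring of each array the middle value was -1.33 (Pkp1), under the all-gene median of -0.55. No filter on low values was applied, and all 9 genes were over the median probe set in all 4 tissue arrays.

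**Figure D1:**
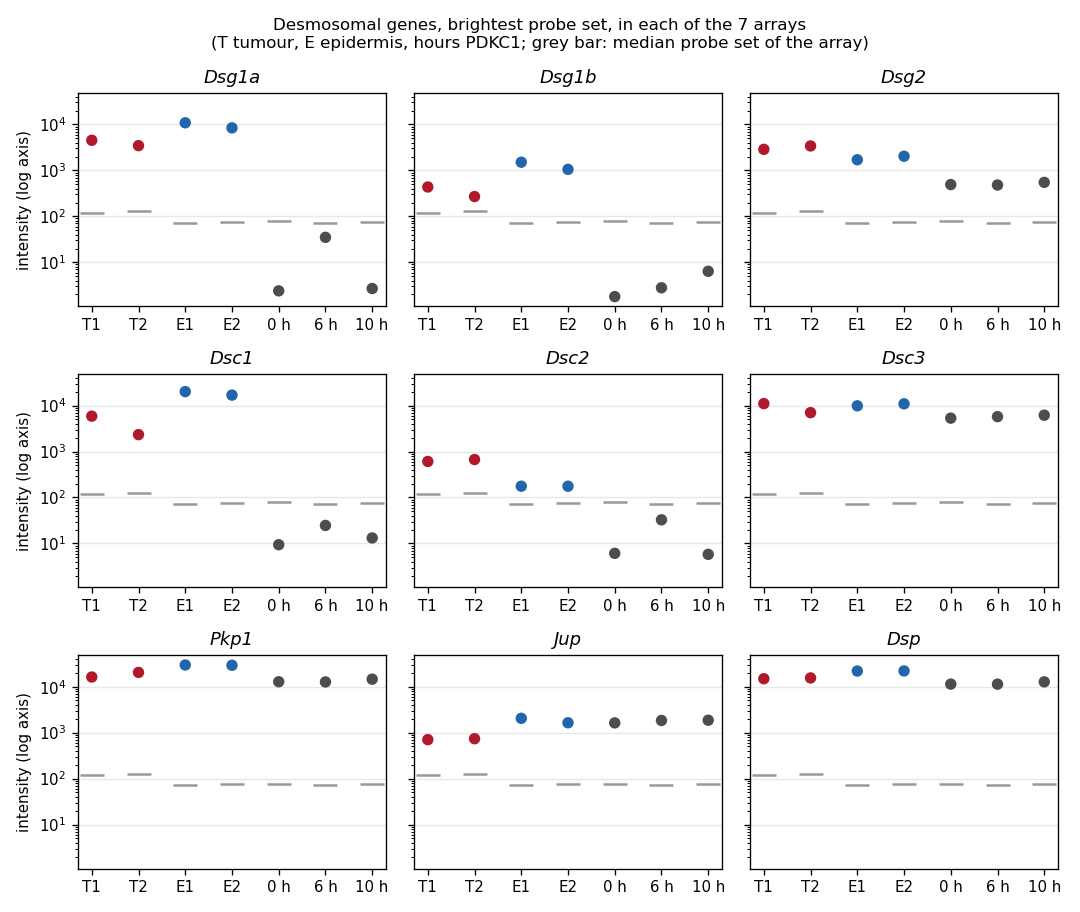
Intensity (log axis) of the brightest probe set of each desmosomal gene in each array: tumours (red), newborn epidermis (blue) and PDKC1 at 0 h, 6 h and 10 h (dark grey), with the median probe set of each array as a grey bar. Dsg1a, Dsg1b, Dsc1 and Dsc2 lie over the bars in all 4 tissue arrays and under them in all 3 PDKC1 arrays, whereas the other 5 genes stay over the bars in all 7 arrays.

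Dsc1, the desmocollin of the upper epidermal layers, showed the largest fall of the 9 genes. Its intensity was 5875 and 2329 in tumours 1 and 2, and 20072 and 16845 in epidermis 1 and 2. Both tumours lay under both epidermis arrays, and tumour 1 was 2.51-fold over tumour 2. The log2 difference was -2.31 ± 0.41 (SE, 2 arrays per group; adjusted p = 0.00620 by limma), and the adjusted p was 0.0666 without epidermis 1. The other Dsc1 probe set, 1421460_at, went the same way, at 135.0 and 64.2 in the tumours against 1386 and 1694 in epidermis (-3.81 ± 0.37, adjusted p = 0.000713 by limma).

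The Dsg1 genes, which encode the desmoglein of the differentiating layers, were lower as well. Dsg1a was at 4518 and 3455 in the tumours and 10843 and 8401 in epidermis, a log2 difference of -1.27 ± 0.25 (adjusted p = 0.00939 by limma). Dsg1b was at 435.4 and 270.0 in the tumours and 1508 and 1053 in epidermis (-1.83 ± 0.32, adjusted p = 0.00596 by limma). For both genes tumour 2 was the lowest tissue array and the groups did not overlap. Each Dsg1 gene had 1 probe set, and because the copies are alike in sequence, how far each probe set measures its own gene is uncertain. With epidermis 1 left out neither was called (adjusted p = 0.157 for Dsg1a and 0.0986 for Dsg1b), nor was Dsg1a without epidermis 2 (0.0728) or without a variance trend (0.0551).

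The other cadherins moved the opposite way or were not called. Dsc2, a desmocollin found in many epithelia, was at 607.7 and 669.7 in the tumours against 176.1 and 175.9 in epidermis (1.77 ± 0.29, adjusted p = 0.00428 by limma). The 2 arrays of each tissue were close together and well apart from the other tissue. The call was lost without epidermis 1 (adjusted p = 0.0610) or epidermis 2 (0.0571). The second Dsc2 probe set, 1421156_a_at, was under the median probe set in every array, and its log2 difference was -0.65 (adjusted p = 0.438 by limma); with the mean of both probe sets the difference was 0.56 (adjusted p = 0.263).

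Dsg2, the most widely expressed desmoglein, was at 2870 and 3400 in the tumours and 1704 and 2035 in epidermis (0.74 ± 0.23, adjusted p = 0.0472 by limma). The tumours were the higher, without overlap, but this is the call nearest to the threshold. It was lost with arrays centred on their medians (0.10, adjusted p = 0.763), without a variance trend (0.169), without epidermis 1 (0.391) or epidermis 2 (0.220), and the sign turned with the mean of the 6 Dsg2 probe sets (-0.06, adjusted p = 0.886). None of the other 5 Dsg2 probe sets was called. The next brightest, 1449740_s_at, was at 2695 and 2760 in the tumours against 2200 and 2470 in epidermis (0.23), with a sign that turned when arrays were centred (-0.42), whereas 1425619_s_at was at 239.1 and 102.1 against 422.3 and 427.9 (-1.35, adjusted p = 0.0536). The latter, opposite in sign to the brightest, was called lower with quantile normalization (0.0252), after median centring (0.0149), with dim probe sets left out (0.0367) and without tumour 1 (0.00343).

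Dsc3, the desmocollin of basal keratinocytes, was bright in every array of the tissues. It stood at 11027 and 7003 in the tumours and 9853 and 10888 in epidermis, so the tumours lay on both sides of the epidermis. The difference of -0.24 ± 0.28 had a 95% interval of -0.89 to 0.42 (adjusted p = 0.598 by limma). It turned to 0.23 with quantile normalization and 0.09 without tumour 2, and it was called lower without tumour 1 (-0.56, adjusted p = 0.0300).

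Among the plaque genes Jup was the one called by its brightest probe set. Plakoglobin, its product, also belongs to adherens junctions and is a close relative of beta-catenin. Jup was at 704.3 and 737.7 in the tumours and 2048 and 1640 in epidermis, both tumours being under both epidermis arrays (-1.33 ± 0.23, adjusted p = 0.00591 by limma). The call was lost without epidermis 1 (adjusted p = 0.128) or epidermis 2 (0.0642). Its relative Ctnnb1, the beta-catenin gene, was at 24568 and 28608 against 26638 and 27707, with a log2 difference of -0.04 (adjusted p = 0.940).

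Pkp1, which gathers desmoplakin at the plaque, was at 16209 and 20413 in the tumours and 29619 and 29224 in epidermis (-0.69 ± 0.26, adjusted p = 0.0877 by limma). Dsp, the linker to keratin filaments, was at 14876 and 15489 against 21877 and 21974 (-0.53 ± 0.23, adjusted p = 0.144 by limma). For each gene both tumours were under both epidermis arrays, as for 6 of the 9 genes here and 29.8% of all genes; both tumours were over both epidermis arrays for 2 of the 9 and 35.8% of all genes. Neither was called by its brightest probe set, and other settings changed the outcome. The difference of Pkp1 was -0.03 after quantile normalization and -1.33 after median centring of each array (adjusted p = 0.00959), and that of Dsp was 0.10 and -1.17 (adjusted p = 0.0125). Pkp1 was called lower with dim probe sets left out (adjusted p = 0.0310), and Dsp with the mean of its probe sets (-0.90, 0.0303). The nearly as bright Dsp probe set 1435493_at was at 16501 and 14105 against 25327 and 23722 (-0.68, adjusted p = 0.0786 by limma). It was called lower after median centring (0.0103) and with dim probe sets left out (0.0285). A dimmer Dsp probe set, 1427610_at, was called lower and is described below. Pkp1 was also called lower without tumour 1 (-0.53, adjusted p = 0.0451) or tumour 2 (-0.86, 0.00871), as was Dsp (-0.50, 0.0475 and -0.56, 0.0401); in those fits the spread comes from the epidermis arrays alone.

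**Figure D2:**
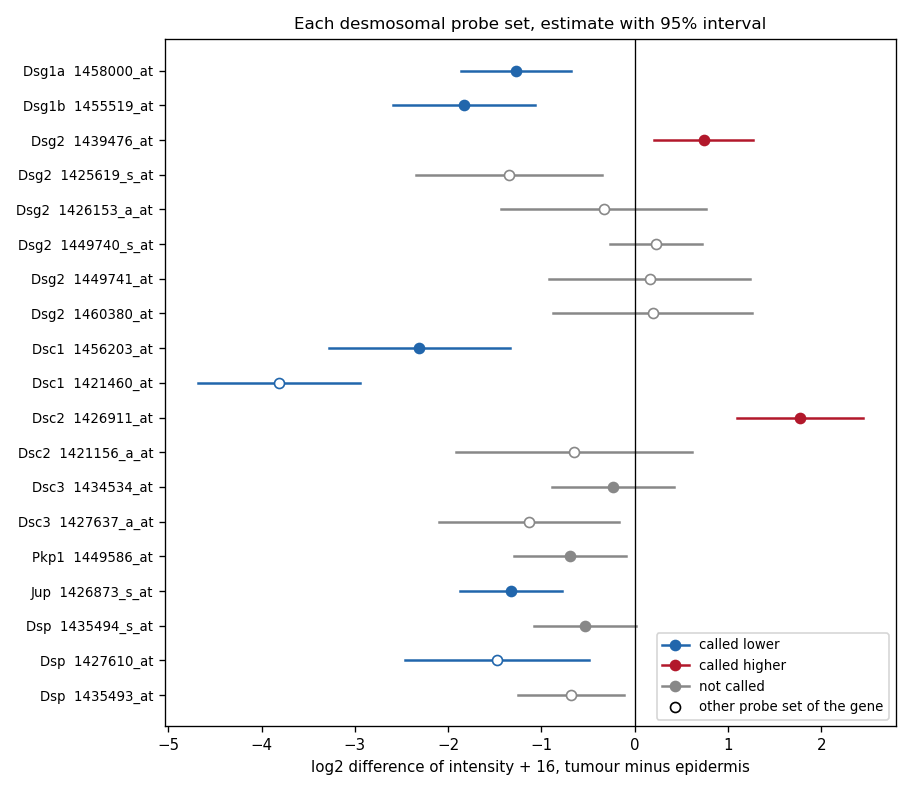
Log2 difference of intensity + 16, tumour minus epidermis, for each of the 19 desmosomal probe sets, with the 95% interval of the limma fit to 2 arrays per group; filled points are the brightest probe set of each gene. Of the probe sets 6 were called lower (blue) and 2 higher (red), and both Dsc1 probe sets lie left of all the others.

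By probe set, 6 of 19 were called lower and 2 higher, beside 9.17% and 18.3% of all probe sets. The lower calls were both Dsc1 probe sets and those of Dsg1a, Dsg1b, Jup and Dsp 1427610_at. The tumours lay under both epidermis arrays, without overlap, in 12 of 19 probe sets and over them in 3, beside 25.0% and 38.4% of all probe sets. Calls changed with the array left out, as did those over all genes, since the pair that remains supplies the spread. Without epidermis 1, 0 of the 9 genes were called lower and 0 higher by limma, at which 3.47% and 5.24% of all genes were called, and without epidermis 2, 2 were lower and 0 higher (3.95% and 6.01% of all genes). Without tumour 1, 7 were lower and 2 higher (17.8% and 18.6% of all genes), and without tumour 2, 6 were lower and 2 higher (13.5% and 16.4%).

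Because probe sets differ in brightness, the balance between paired genes was followed as a change of the log2 ratio within each array, set to 0 at the epidermis mean. The ratio of Dsc2 to Dsc1 stood at 3.34 and 4.81 in tumours 1 and 2, against -0.13 and 0.13 in epidermis, a 16.9-fold shift toward Dsc2. The ratio of Dsc3 to Dsc1 shifted by 2.07 and that of Dsg2 to Dsg1a by 2.01 on the log2 scale, each with both tumours over both epidermis arrays. Jup to Ctnnb1 shifted by -1.29. Pkp3 to Pkp1 shifted by -1.17, but this came mostly from tumour 2 (-2.03, against -0.32 in tumour 1). An exact two-sided permutation test of 2 against 2 arrays cannot go below p = 0.333, the value of each of these 5 pairs. With quantile normalization, another pseudocount or 1 array left out the Dsc2 to Dsc1 shift ranged from 3.13 to 4.81, Dsc3 to Dsc1 from 1.73 to 2.41, Dsg2 to Dsg1a from 1.70 to 2.33, Jup to Ctnnb1 from -1.94 to -1.10 and Pkp3 to Pkp1 from -2.03 to -0.32. Median centring cannot move a ratio within an array, and means over probe sets were not tried for these ratios.

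The tumours differed from each other most in Dsc1. It was the only one of the 9 genes at least 2-fold lower in tumour 2, as were 9.17% of all genes, and 0 were at least 2-fold higher there, as were 7.94%. Tumour 2 is also the array with the Actb ratio of 93.1 (tumour 1: 11.3), but the Gapdh ratios were closer, at 15.4 and 10.6. The part of RNA quality in this gap was not tested.

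In PDKC1 the desmosome was represented by a subset of its genes. Dsg1a (2.4, 35.0 and 2.7 at 0 h, 6 h and 10 h), Dsg1b (1.8, 2.8 and 6.4), Dsc1 (9.4, 24.7 and 13.2) and Dsc2 (6.1, 32.7 and 5.8) were under the median probe set in all 3 arrays. Dsc3, Dsg2, Pkp1, Jup and Dsp were over it in all 3. The line thus had low signal for the 2 suprabasal cadherin types and for Dsc2, and clear signal for the basal desmocollin and all 3 plaque genes measured.

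Dsc3 was at 5322, 5735 and 6164, Pkp1 at 12797, 12658 and 14554, and Dsp at 11360, 11327 and 12722 in PDKC1 at 0 h, 6 h and 10 h. Each of these 9 values lay under the lowest tissue array of its gene. Dsg2 was at 491.7, 481.1 and 549.1, and its 0 h value was 3.39-fold under the lowest tissue array. Jup differed from the other members: at 1629, 1837 and 1862 it overlapped the epidermis range of 1640 to 2048 and stood over both tumours. Of the 9 genes 8 had all 3 PDKC1 arrays under all 4 tissue arrays, as did 22.8% of all genes. At 0 h 5 of 9 (Dsg1a, Dsg1b, Dsg2, Dsc1 and Dsc2) were at least 2-fold under the lowest tissue array, as were 11.0% of all genes, and 0 were at least 2-fold over the highest, as were 6.80%. These counts are of the brightest probe sets. For Dsg2, 1449740_s_at was 9.50-fold under at 0 h, but 1425619_s_at, 1426153_a_at and 1449741_at were only 1.11-fold, 1.34-fold and 1.30-fold under. The Dsg2 probe set 1460380_at was not under the lowest tissue array. The dimmer probe sets of Dsc1 and Dsc2 were 1.32-fold and 1.44-fold under. With 1 array per time there is no test of these differences, and the PDKC1 RNA was labelled from 2 ug against 100 ng for each tissue array.

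Dsc3 and Dsp gave a different order of groups by probe set. The Dsc3 probe set 1427637_a_at was at 85.2 and 94.9 in the tumours, 184.3 and 253.4 in epidermis and 1207, 1370 and 1314 in PDKC1, so the intensity of PDKC1 at 0 h was 13.4 times the tumour mean (a log2 difference of 3.53 on the intensity + 16 scale), whereas with the brightest probe set it was 0.590 of it. Its lower signal in the tumours was not called (-1.13, adjusted p = 0.0818 by limma), but it was with quantile normalization (0.0214), after median centring (0.0150) and with dim probe sets left out (0.0407). The Dsp probe set 1427610_at was at 89.0 and 70.1 in the tumours, 204.7 and 301.6 in epidermis and 3236, 3424 and 3518 in PDKC1, an intensity 40.7 times the tumour mean at 0 h (log2 difference 5.10) against 0.748 of it with the brightest probe set. For both probe sets the tumour values were under the median probe set of their arrays. In both the order from tumour to epidermis to PDKC1 is that of falling Actb 3' to 5' ratios. Where these probe sets lie along their transcripts is not given, and the parts of RNA quality and of RNA input were not tested. The same kind of disagreement, chosen after its values were seen (1 probe set at least 2-fold over all tissue arrays in PDKC1 at 0 h and another under them all), occurred in 6.55% of the 9010 genes with several probe sets. The lower call of Dsp 1427610_at in the tumours (-1.48 ± 0.42, adjusted p = 0.0373 by limma) was lost without tumour 2 (0.0597), epidermis 1 (0.134) or epidermis 2 (0.286).

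**Figure D3:**
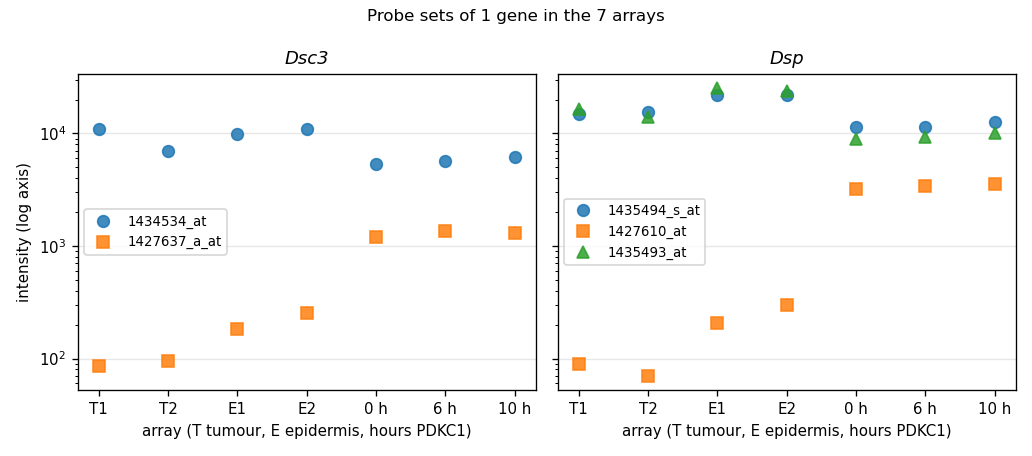
Intensity (log axis) of each probe set of Dsc3 and Dsp in the 7 arrays (T tumours, E epidermis, hours of cyclopamine for PDKC1). The brightest probe sets are lowest in PDKC1, whereas 1427637_a_at and 1427610_at are highest there.

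Cyclopamine was followed by little movement of the desmosomal genes in PDKC1. Of the 5 genes over the median probe set, 0 were at least 2-fold from 0 h at both 6 h and 10 h, as were 0.924% (higher) and 1.01% (lower) of the 11581 genes over the median. Their log2 differences from 0 h lay between -0.03 and 0.17 at 6 h and between 0.15 and 0.21 at 10 h, where the medians of all genes were -0.02 and -0.01. All 5 were thus slightly higher at 10 h, the highest being Dsc3 (0.21) and Jup (0.19). Differences of this size, from 1 array per time, have no replicate check. The 4 genes under the median had values too near the floor to give a fold.

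The promoters of Dsp and Jup, both plaque genes expressed in all 7 arrays, are shown because the brightest probe set of Jup was called lower in the tumours and that of Dsp was not. Only these 2 members matched the RefSeq promoter table (GRCm38.p6); the array files name no genome build. For Dsp the 250 bases before the start are chr13:38151044-38151293 on the plus strand. For Jup the 201 bases of that window that lie outside the annotated gene are chr11:100397840-100398040 on the minus strand. Capitals mark GGGCGG, the GC box, and CCAAT, each on either strand.
Dsp: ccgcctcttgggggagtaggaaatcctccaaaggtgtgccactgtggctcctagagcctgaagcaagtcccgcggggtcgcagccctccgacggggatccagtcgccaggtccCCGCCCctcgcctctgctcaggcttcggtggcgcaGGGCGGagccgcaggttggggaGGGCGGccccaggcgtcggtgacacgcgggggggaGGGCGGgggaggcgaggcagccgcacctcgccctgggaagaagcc
Jup: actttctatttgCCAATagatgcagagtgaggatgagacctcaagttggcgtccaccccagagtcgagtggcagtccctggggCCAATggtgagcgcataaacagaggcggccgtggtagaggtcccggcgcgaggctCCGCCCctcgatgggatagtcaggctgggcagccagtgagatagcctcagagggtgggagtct

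In the full 250 bases before the start, Dsp had 4 GC boxes and Jup 2, of which 1 lies in the stretch shown, and 32.7% of 32851 windows of that length held at least 1. CCAAT occurred 2 times in Jup and 0 times in Dsp (33.8% of windows). The Dsp window was 72.4% G and C and the Jup window 62.0%, against a median of 52.4%. Neither held TATAAA (12.4% of windows), the AP-1 motif TGANTCA (6.75%), the E-box CAGGTG (17.2%) or the grainyhead motif AACCGGTT (0.116%) on either strand. In the stretches shown no marked motif overlapped another.

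Most other genes of the desmosome and of the cornified junction were lower in the tumours. Of 7 measured, 5 were lower and 2 higher in the tumours (median -1.87), beside 12.3% and 16.2% of all genes. After quantile normalization 3 were lower, beside 14.2% of all genes. Fewer were called in either direction without epidermis 1 or without epidermis 2. Cdsn, the corneodesmosin that caps desmosomes in the outer layers, was at 989.1 and 345.3 in the tumours against 27237 and 24111 in epidermis (-5.41 ± 0.44, adjusted p = 0.000490 by limma). The plakin genes Evpl (-2.82) and Ppl (-2.74), whose products join desmosomes to the cornified envelope, were lower too. Pkp2, the plakophilin of simple epithelia and heart, was at 384.7 and 491.2 in the tumours, 82.9 and 93.0 in epidermis and 406.5 to 468.3 in PDKC1 (2.12 ± 0.36, adjusted p = 0.00488 by limma), so among plakophilins the rise of Pkp2 stood beside a fall of Pkp3 (4057 and 1553 against 8756 and 9678; -1.87, adjusted p = 0.0149). Pkp2 had an adjusted p of 0.0544 with the mean of its probe sets. Without epidermis 1 the adjusted p was 0.0569 for Pkp2, 0.0502 for Evpl and 0.0925 for Pkp3, and Pkp3 had 0.107 without epidermis 2, 0.0549 with quantile normalization and 0.0584 without a variance trend. Perp, a membrane protein of desmosomes, and Pkp4, both named after their values were seen, differed by -0.97 (adjusted p = 0.0302) and 0.75 (0.0363). The call of Perp was lost after quantile normalization (0.306), when no variance trend was fitted (0.0894), with the mean of its probe sets (0.109) and without epidermis 1 (0.217) or 2 (0.279). Pkp4 was not called with arrays centred on the median (0.732), when no variance trend was fitted (0.152), with the mean of its probe sets (0.550) or without epidermis 1 (0.342) or 2 (0.232).

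Genes of the adherens junction, the other cadherin junction of keratinocytes, were mostly not called. Of 10 measured, 2 were lower, 1 was higher and 7 were neither (median -0.28), where 12.3% of all genes were lower and 16.2% higher. After median centring 4 were lower, beside 25.3% of all genes. Nectin4 (-2.80) and Nectin2 (-2.21), which encode adhesion molecules of that junction, were lower, and Afdn, their cytoplasmic partner, was higher (10235 and 16823 against 2304 and 2214; 2.53 ± 0.28, adjusted p = 0.00104 by limma). Cdh1, the E-cadherin gene, was at 5489 and 5891 in the tumours and 7050 and 6656 in epidermis (-0.27, adjusted p = 0.416), but at 59.4, 31.2 and 8.0 in PDKC1. Cdh3, the P-cadherin gene, went the other way: it was at 155.3 and 58.4 in the tumours, 98.9 and 174.8 in epidermis and 1085, 922.4 and 880.3 in PDKC1. Low PDKC1 signal beside that of Dsg1a, Dsg1b, Dsc1 and Dsc2 was thus seen for Cdh1 and not for Cdh3.

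Keratins, the filaments that desmoplakin anchors, and markers of the epidermal layers were followed beside the members. Of 12 keratin genes 3 were lower and 1 was higher (median -0.43), beside 12.3% and 16.2% of all genes. After median centring 7 were lower, beside 25.3% of all genes. These counts also changed with 1 array left out. Krt1, the keratin of suprabasal cells, was at 6580 and 7802 in the tumours against 39199 and 40934 in epidermis (-2.48 ± 0.24, adjusted p = 0.000713 by limma), and at 28.3, 33.8 and 47.3 in PDKC1. Krt16 (-1.89) and the basal keratin Krt14 (-1.34) were lower and the wound and follicle keratin Krt6a was higher (1.54). The call of Krt14 was lost with the mean of its probe sets (-0.80, adjusted p = 0.176), after quantile normalization (0.207), when no variance trend was fitted (0.0871), and without epidermis 1 (0.133) or 2 (0.218). Krt6a was not called with the mean of its probe sets (0.352); without epidermis 1, Krt6a had 0.119, and without epidermis 2, Krt16 had 0.0752. All 7 spinous and granular layer markers were lower (median -2.86), among them Ivl (-5.70), Tgm1 (-5.08), Krtdap (-2.98) and Tgm3 (-2.86). The calls of Krtdap and Tgm3 were lost without epidermis 1 (adjusted p = 0.0576 and 0.0969) or epidermis 2 (0.0544 and 0.0997), and the list then had 3 lower with either left out. Of 5 basal layer adhesion genes limma called 0, and 0 had an unadjusted p under 0.05 (median 0.36); without tumour 2, 2 were called higher. The brightest were Itga6 (0.36, adjusted p = 0.282), which turned to -0.28 with arrays centred, and Col17a1 (0.66, 0.343), which was called without tumour 2 (1.40, 0.00293) and had -0.08 without tumour 1.

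Regulators of epidermal differentiation and proteases that cleave desmosomal proteins were mostly lower. Of 10 transcription regulators 7 were lower and 1 was higher (median -1.24), beside 12.3% and 16.2% of all genes. Fewer were lower without epidermis 1 or without epidermis 2. Ovol1 (-3.98), Grhl3 (-3.24), Zfp750 (-3.23) and Cebpa (-2.40) had the largest differences. Of the grainyhead family Grhl1 was lower (4375 and 5047 against 13761 and 11431; -1.41, adjusted p = 0.00431) and Grhl2 higher (1360 and 1665 against 470.5 and 672.6; 1.39, 0.00873). Both calls, named after their values were seen, were lost without epidermis 1 (0.102 and 0.137) or epidermis 2 (0.0572 and 0.0517), and that of Grhl2 with arrays centred (0.0707) or with the mean of its probe sets (0.0625). Of 7 proteases and inhibitors 5 were lower (median -2.78), namely the corneodesmosome proteases Klk5 (-5.19) and Klk7 (-3.86), the lysosomal proteases Ctsd (-2.95) and Ctsl, and the kallikrein inhibitor Spink5 (-2.78; adjusted p = 0.0572 without epidermis 1). Adam10 and Adam17, which shed cadherins at the cell surface, were not called (0.06 and -0.57). The median log2 difference of all genes was 0.09 as deposited, -0.19 after quantile normalization and -0.55 after median centring, so each of the differences above stands relative to a centre that moves with the scaling.

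**Figure D4:**
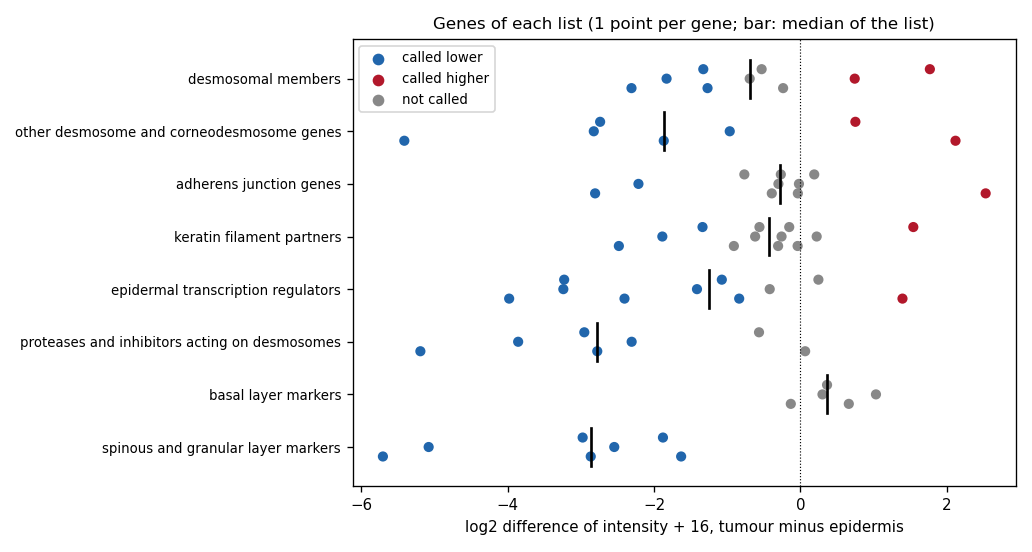
Log2 difference of intensity + 16, tumour minus epidermis, for each gene of the desmosomal members and of 7 companion lists (1 point per gene, bar at the list median; blue lower, red higher, grey not called). Spinous and granular markers lie wholly left of 0, whereas the desmosomal members hold genes on both sides, from Dsc1 at -2.31 to Dsc2 at 1.77.

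Likeness of pattern was measured as the Pearson correlation of log2(intensity + 16) over the 7 arrays. These fall into 3 separate groups, so high values mainly reflect differences between groups. They need not mean the same order of tumour and epidermis. Dsg1a, lower in the tumours, had r = 0.91 with Dsg2 and 0.89 with Dsc2, both higher in the tumours by their brightest probe sets. Among the members Dsc1 and Dsg1b were the most alike (r = 0.996), Pkp1 and Dsp had r = 0.990 and Dsg2 and Dsc2 r = 0.969. Jup, in contrast, had r = -0.75 with Dsc2, -0.71 with Dsg2 and from -0.39 to 0.05 with the other members. The most alike genes outside the family were Tmem30b, Cds1 and S100a16 for Dsg1a, Ccdc120, Golga4 and Daam1 for Dsg1b, and Yy1, Zfand1 and Ppm1a for Dsc1. For Dsg2 they were Alcam, 4930526I15Rik and Grhl2, for Dsc2 Itih5, Mtcl1 and Col27a1, and for Dsc3 H2-K1, Ddrgk1 and Tarbp2. For Pkp1 they were Flrt1, Hmgn5 and Rab3gap2, for Jup Ppp1cb, Map1lc3b and Rer1, and for Dsp Sdr16c5, Pard6g and Insig2. The lowest of these correlations was 0.983, for Tarbp2 with Dsc3, and the highest 0.9996, for Yy1 with Dsc1.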

How the data were processed

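The authors deposited 1 linear intensity for each probe set of single-channel Affymetrix arrays; which software summarised them is not given in the sources used here. Per the labels' protocols, cRNA was biotinylated from 100 ng (tissues) or 2 ug (PDKC1) of total RNA. The mean of each array without its lowest and highest 2% of probe sets lay between 496.4 and 497.8, so arrays appear scaled as a whole; nothing further was normalized. Of 45101 probe sets 64 controls were left out; 34945 map to 1 gene, 932 to several and 9160 to none. The number of arrays limits the precision.

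Tumour and epidermis (2 arrays each) were tested by limma 3.58.1 (R 4.3.3) on log2(intensity + 16) (lmFit, eBayes with a variance trend), two-sided, adjusted over 45037 probe sets. Folds are on this scale and understate changes of dim genes, except the ratios of PDKC1 to the tumour mean for Dsc3 and Dsp, which are of intensities. No block was used: deviations of same-numbered arrays had a correlation of -0.0009. The fit was first tested on simulated data. It called 4 of 50 simulated 2-fold changes and 43 of 50 of 4-fold, with 13 false calls. Only 50 of 45037 probe sets were changed at each simulated fold. In the real comparison 18.3% were called higher and 9.17% lower. The cut-off on unadjusted p was therefore stricter in the simulation, and its rates are not the sensitivity of the real fit. A gene not called may still differ. The limma intervals of Pkp1 (-1.29 to -0.09) and Dsp (-1.08 to 0.02) include a 2-fold fall, but that of Dsc3 (-0.89 to 0.42) does not. PDKC1 was described without a test. Members and lists were chosen with earlier results of these data known. Companion genes named were the 4 largest called differences of a list, or the 2 brightest where none was called; the most alike genes were the 3 highest correlations among genes whose brightest array is over its median. Pkp3, Pkp4, Perp, Ctnnb1, Cdh1, Cdh3, Grhl1, Grhl2, Ctsl, Adam10 and Adam17 were named outside this rule, after their values were seen. Dsg1c, Dsg4 and Klk14 were not analysed here. Alternatives were quantile normalization, median centring, pseudocounts 4 and 64, a filter at the 40th percentile, gene-level fits, no variance trend, a replicate block, each tissue array left out, and other fold limits.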

Additional observations from a re-analysis of the deposited data

How the results depend on the processing

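The replicate block left 1 member gene and 1 member probe set called higher, since Dsg2 was then not called (adjusted p = 0.0619); it also ended the calls of Perp (0.0565) and Pkp4 (0.0593) and called Dsg2 1425619_s_at lower (0.0279). Among the lower member genes and probe sets it gave counts within 1.5 times the main ones. Median centring (25.3% of all genes lower, 7.81% higher) also left 1 gene and 1 probe set higher. So did no variance trend (12.1% of all genes higher) and a 2-fold limit. The mean of probe sets left 0 genes higher, beside 14.7% of all genes. Lower probe sets numbered 11 with median centring and 10 with dim probe sets left out. With dim probe sets left out, 19.1% of the 12603 genes kept were lower. The shares in this paragraph are of genes, not of probe sets. With 1 tissue array left out, lower genes ranged from 0 to 7 (3.47% to 17.8% of all genes), higher genes from 0 to 2 (5.24% to 18.6%), lower probe sets from 1 to 11 and higher probe sets from 0 to 2. Signs turned for Dsg2 with the mean of probe sets (-0.059), for Dsp (0.10) and Dsc3 (0.23) with quantile normalization, and for Dsc3 with 1 array left out (-0.56 to 0.090). They also turned for Dsg2 1449740_s_at (-0.42), 1449741_at (-0.48 centred, -0.56 quantile) and 1460380_at (-0.45, -0.47), and with 1 array left out for 1449741_at (-0.16 to 0.49), for Itga6 with median centring (-0.28) and for Col17a1 with 1 array left out (-0.076 to 1.40). The causes were not tested; where 1 array is left out, the lone array of its group is assumed to vary like the other group. The Dsg3 to Dsg1a balance was not run, since Dsg3 was not analysed here. Array number limits what small differences could be seen.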
